A study of Arabidopsis thaliana with 9 samples.

Results

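The genes described here moved in opposite directions in 2 lines of Arabidopsis thaliana with reduced Polycomb Repressive Complex 2 (PRC2) function. Of the 30361 genes on the array, 104 qualified. In 74 of them the transcript was more than 2-fold higher in siFIE seedlings and more than 2-fold lower in clf swn seedlings than in wildtype Col. In the other 30 it was more than 2-fold lower in siFIE and more than 2-fold higher in clf swn. The rule compared the mean log2 RMA signal of the 3 arrays of each genotype, where RMA is an array normalization that gives 1 value per gene, and asked for a change beyond 1 on the log2 scale on both sides and a mean log2 signal above 8 in at least 1 genotype. It removed no gene through the floor, and 3 loci were left out beforehand. The members were chosen by these changes against Col, so the changes are given below as a description and without a test.

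PRC2 is a chromatin complex that places methyl groups on lysine 27 of histone H3, a mark of genes kept silent through cell division. FIE is a WD-repeat subunit present in the known PRC2 complexes of the plant, whereas CLF and SWN are alternative catalytic subunits. Loss of the complex is known to release regulators of embryos, flowers and seeds in seedlings, and the genes that respond include direct targets and genes further downstream.

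Transcripts were measured in whole seedlings, 12 days old, grown on MS agar, with 3 arrays for each of Col, siFIE and clf swn and a separate pool of 10 to 12 plants for each array. The siFIE seedlings were T1 plants, that is independent first-generation transformants, carrying an RNAi construct against FIE. Those with an intermediate phenotype were pooled after selection on kanamycin at 50 mg per litre, to which the other genotypes were not exposed as far as the labels say. Their background is given as C24 by the sample labels and as Col by the study's methods. The double mutant is named clf-7 swn-28 in the sample titles and swn-7 clf-28 in the growth protocol, and is written clf swn here. It is sterile, so its seedlings were picked out of a segregating family. The wildtype arrays were all Col, so effects of the C24 background, of kanamycin and of the FIE construct cannot be told apart in siFIE.

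The targeted genes behaved as labelled: the FIE signal in siFIE was 0.152 of that in Col, and in clf swn the CLF and SWN signals were 2.9-fold and 56.5-fold lower. In clf swn the FIE signal was 1.81 times that of Col. Across genes, which are no independent replicates, the log2 signals had a Pearson's r of 0.991 to 0.994 between arrays of 1 genotype and 0.915 to 0.978 between genotypes. The median RMA signal of an array, which is a value after normalization, ranged from 1115.7 to 1168.7. The median probe signal before normalization ranged from 1213.2 to 2370.1, both on Col arrays, and within siFIE from 1319.1 to 2168.3. Only 0 to 15 probes per array were saturated. In whole seedlings, fewer cells of a type and less RNA per cell cannot be told apart, and this touches every value below.

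**Figure D1:**
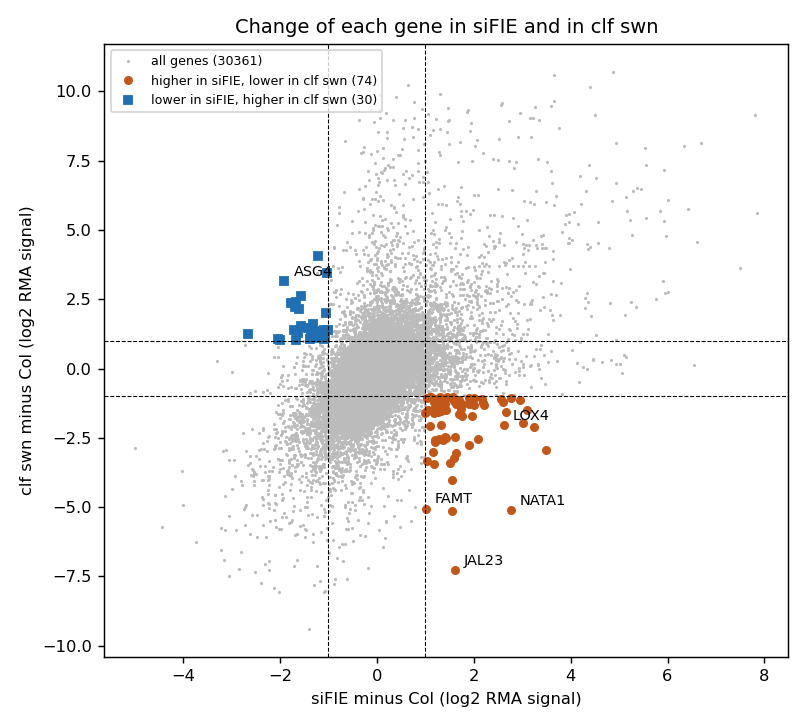
Each point is a gene, with the siFIE minus Col difference of the mean log2 RMA signal on the x axis and the clf swn minus Col difference on the y axis, both over 3 arrays per genotype. Orange circles are the 74 members higher in siFIE and lower in clf swn, blue squares the 30 with the opposite pattern, grey points all 30361 genes, and dashed lines the limits of the rule at 1 and -1. The circles lie beyond both limits at the lower right, down to 154-fold for JAL23, and the squares at the upper left.

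Among the 74 genes higher in siFIE and lower in clf swn, the change ranged from 2.00-fold to 11.3-fold in siFIE (median 2.72-fold) and from 2.01-fold to 154-fold in clf swn (median 2.79-fold). The median change of all genes on the array was -0.02 on the log2 scale in siFIE and 0.05 in clf swn. The limma call, which asks for more than 2-fold and an adjusted p under 0.05, was met on both sides by 72 of the 74, a count that the rule itself fixed. The same call in both comparisons held for 0.24% of all genes. Every siFIE array lay above and every clf swn array below every Col array for all 74, as for 2.77% of all genes. The changes were over 3-fold on both sides for 14 of them and over 4-fold for 5. The Col signal of the 74 had a median of 974.5, against 1115 for all genes, and 35 of them were above the latter.

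The 30 genes lower in siFIE and higher in clf swn spanned 2.01-fold to 6.30-fold in siFIE (median 2.60-fold) and 2.04-fold to 16.6-fold in clf swn (median 2.60-fold). Of these, 29 met the limma call on both sides, which 0.0988% of all genes did. The 3 arrays of each mutant lay beyond the Col arrays on the stated side for all 30, as for 2.3% of all genes. Over 3-fold on both sides were 5 of them, and over 4-fold none. Their Col signal had a median of 806.

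Close to the limits of the rule lay AT5G19890, FAMT and WRKY53 just inside, with a smaller change of 1.00, 1.01 and 1.01 on the log2 scale. Just outside were YSL1 and AT3G13950, both with 0.99 in siFIE, and AT1G53885, whose value in clf swn was -0.999. In the opposite direction MYB111, AT5G27220 and AT3G48510 were the nearest inside, at 1.01, 1.03 and 1.03, and AT5G64780, AT1G12630 and AT5G55450 the nearest outside, at 0.999, 0.991 and 0.96. In all, 28 and 8 genes outside the limits had a smaller change between 0.9 and 1 in the first and in the second direction, and 17 and 13 members had one between 1 and 1.1.

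**Figure D2:**
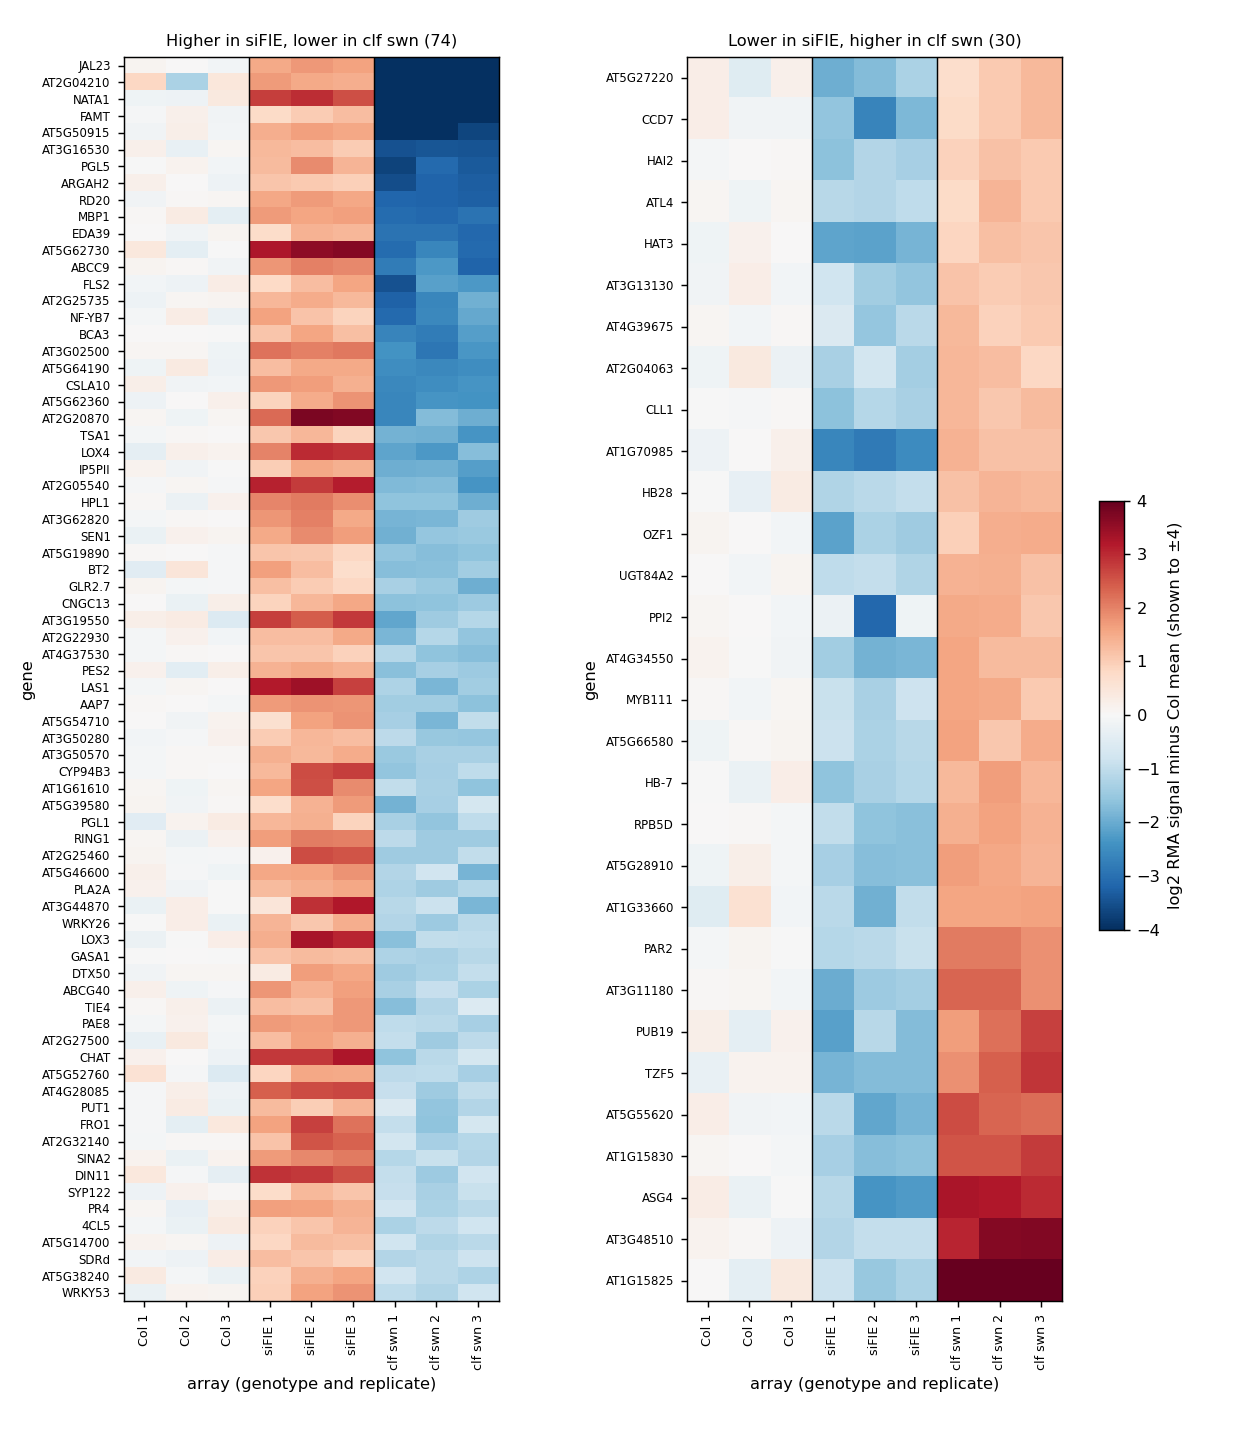
Rows are the 74 members higher in siFIE and lower in clf swn (left) and the 30 with the opposite pattern (right), columns the 9 arrays, and colour the log2 RMA signal minus the mean of the 3 Col arrays, shown to 4 in either direction. Rows are sorted by the clf swn change, and single pale or dark cells such as siFIE 1 for AT2G25460 and siFIE 2 for PPI2 mark arrays that differ from the others of their genotype.

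The signals in the plot of 12 genes higher in siFIE begin with AT5G62730, for which the smaller of both changes was the largest of this set. Its RMA signal was 743, 422 and 547 on the Col arrays, 5269, 6702 and 7014 on the siFIE arrays and 65.8, 91.7 and 63.9 on the clf swn arrays. The Col arrays lay apart from both mutants, and siFIE was 11.3-fold higher and clf swn 7.63-fold lower. NATA1, an acetyltransferase whose substrates include ornithine, measured 2058, 2015 and 3052 in Col, 15723, 18213 and 13945 in siFIE and 64.9, 64.1 and 75.2 in clf swn. All siFIE arrays were far above and all clf swn arrays far below the wildtype, at 6.81-fold and 34.3-fold. AT2G20870 was at 663, 559 and 667 in Col, 3023, 8595 and 8137 in siFIE and 102, 187 and 161 in clf swn. Here the first siFIE array was much lower than the other two, although still above Col, and the mean changes were 9.49-fold and 4.31-fold. AT3G02500 gave 428, 423 and 356 in Col, 1811, 1606 and 1725 in siFIE and 76.1, 53.5 and 80.3 in clf swn, which is 4.27-fold higher and 5.82-fold lower. Its groups were narrow and did not overlap.

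LOX4, a 13-lipoxygenase that feeds the jasmonate pathway, was at 1304, 1917 and 1823 on the Col arrays. It was at 6521, 13257 and 12420.0 in siFIE and at 381, 337 and 514 in clf swn, 6.18-fold higher and 4.10-fold lower. The first siFIE array was the lowest of the 3, and no groups overlapped. AT2G05540 had signals of 678, 750.2 and 689 in Col, 5995, 4951 and 6191 in siFIE and 208, 212 and 139 in clf swn, with changes of 8.06-fold and 3.86-fold. ABCC9, an ABC transporter, was at 977, 918 and 807 in Col, 3038, 3601 and 3411 in siFIE and 129.8, 183 and 98.2 in clf swn. Its clf swn arrays were well under every Col array, 6.77-fold lower on average, and siFIE was 3.72-fold higher. HPL1, a hydroperoxide lyase that makes the aldehydes of green leaf volatiles, measured 2642, 2188 and 2911 in Col, 9828, 10715 and 9341 in siFIE and 841, 842 and 666 in clf swn. The changes were 3.88-fold up and 3.29-fold down, with tight and separate groups.

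AT3G62820 had 886, 957 and 942 in Col, 3128, 3776 and 2649 in siFIE and 256, 259 and 345 in clf swn, a change of 3.40-fold and 3.27-fold. SEN1, known as a transcript of darkened and senescing leaves, was at 2180.3, 3011 and 2832 in Col, 7511, 9771 and 8485 in siFIE and 701, 907 and 954 in clf swn. For both genes the 3 genotypes formed separate clusters, and SEN1 changed 3.22-fold and 3.13-fold. MBP1, a protein that binds myrosinases, the enzymes that cleave glucosinolates, was at 3619, 4383 and 2646 in Col, 11207, 10382 and 10769 in siFIE and 409, 389.9 and 449.6 in clf swn. Its clf swn level was 8.36-fold lower and its siFIE level 3.10-fold higher. CSLA10, of the cellulose synthase-like family, gave 2114, 1629 and 1666 in Col, 5967, 5703 and 4832 in siFIE and 298, 319.6 and 347 in clf swn. It was 3.06-fold higher and 5.58-fold lower, and its groups lay far apart.

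**Figure D3:**
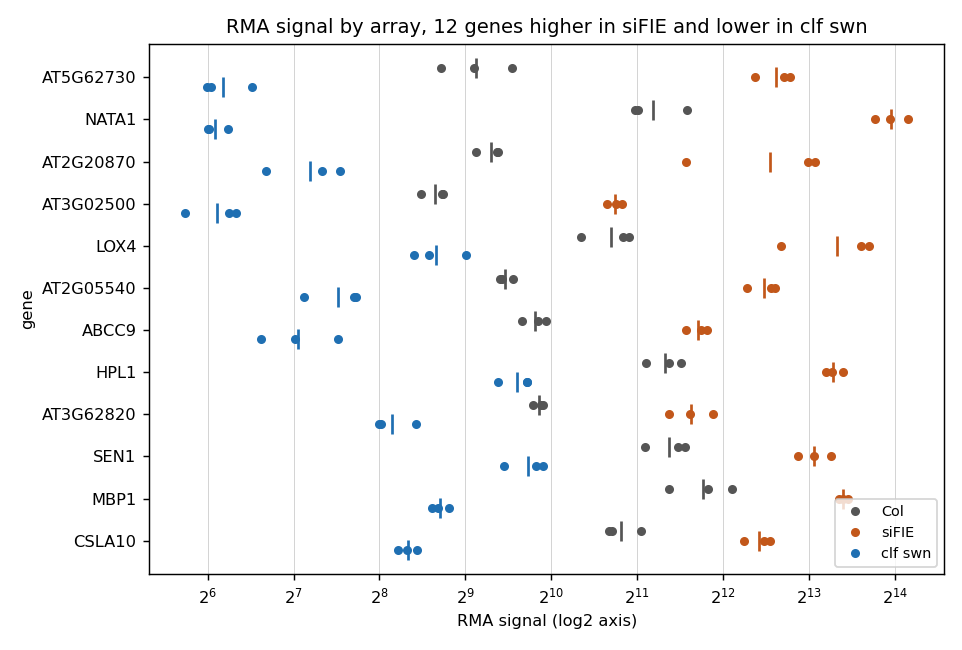
RMA signal on a log2 axis for the 12 members higher in siFIE and lower in clf swn with the largest smaller change. Dots are single arrays, 3 per genotype, and bars the mean of the log2 values. In every row the clf swn dots lie left and the siFIE dots right of the Col dots, from 11.3-fold and 7.63-fold for AT5G62730 to 3.06-fold and 5.58-fold for CSLA10.

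Enzymes of oxylipins and leaf volatiles made up a group of 5 members: LOX3, LOX4, HPL1, CHAT and CYP94B3. They were 3.88-fold to 7.80-fold higher in siFIE and 2.17-fold to 4.10-fold lower in clf swn. LOX3, a second 13-lipoxygenase, was at 862, 1009.6 and 1224 in Col, 2809, 10072 and 8420.3 in siFIE and 324, 519 and 501 in clf swn. The first siFIE array was 3.59-fold below the highest siFIE array and still above Col. CHAT, which makes the leaf volatile hexenyl acetate, had 130.3, 118 and 101 in Col, 820.0, 831 and 1084 in siFIE and 38.2, 55.2 and 71.8 in clf swn. It was near the bottom of the signal range in both Col and clf swn, and 1 of its 3 probes did not fall in clf swn. CYP94B3, which hydroxylates the active hormone jasmonoyl-isoleucine and so removes it, measured 316, 346 and 338 in Col, 821, 2023 and 2262 in siFIE and 111, 134 and 163 in clf swn. Again the first siFIE array was the lowest of its group, and the groups did not overlap. The set thus held members with roles in the making and in the breakdown of jasmonates, with both directions fixed by the rule. Of the synthesis genes outside the set that are given below, AOC2, LOX2, AOS and AOC1 were not called in siFIE. OPR3 was called higher there.

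Members that handle arginine, amino acids and polyamines numbered 4. Next to NATA1 stood ARGAH2, an arginase, which releases ornithine from arginine. Its signal was 9941, 8740.4 and 7566 in Col, 18623, 17860.0 and 16746 in siFIE and 752, 943 and 885 in clf swn, 2.04-fold higher and 10.2-fold lower. AAP7, of the amino acid permeases, was 3.35-fold higher and 2.78-fold lower, and PUT1, a polyamine transporter, 2.31-fold and 2.15-fold. The widest gap of all members was that of JAL23, a jacalin-related lectin, at 16605, 15245 and 13987 in Col, 43569, 50187 and 46250.0 in siFIE and 125, 104 and 74.6 in clf swn. That is 3.06-fold higher and 154-fold lower, from one of the brightest transcripts of the set to a level far under the median gene. With MBP1 and TSA1, a protein of endoplasmic reticulum bodies (2.14-fold and 4.17-fold), it formed a group of 3 whose clf swn levels were at least 4.17-fold lower.

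Among 5 members of lipid and terpenoid metabolism, FAMT, a carboxyl methyltransferase that acts on farnesoic acid, lay at 5327, 6376 and 5004 in Col, 9388, 11286 and 12986 in siFIE and 102, 232 and 194 in clf swn. Its change in siFIE, 2.01-fold, only just met the rule, and that in clf swn was 33.3-fold. AT3G44870, the next gene on the chromosome with none between, was a member in the same direction at 55.4, 79.1 and 65.2 in Col, 92.4, 494 and 601 in siFIE and 30.6, 36.4 and 18.7 in clf swn. Its first siFIE array was close to Col, its clf swn change was not called, and 1 of its 2 probes did not fall in clf swn. Whether probes of these neighbours bind both transcripts was not tested. RD20, a caleosin of lipid bodies known from drought, was at 6419, 7317 and 7505 in Col, 20520.0, 22776 and 20748 in siFIE and 778, 768 and 734 in clf swn, with narrow groups 3.02-fold above and 9.30-fold below the wildtype. LAS1, a lanosterol synthase, was 8.60-fold higher and 2.79-fold lower, PES2, a phytyl ester synthase of plastids, 2.70-fold and 2.79-fold, and PLA2A, a patatin-like lipase, 2.65-fold and 2.41-fold. LAS1 was dim in Col and clf swn, and without background correction it was 4.59-fold higher and 1.35-fold lower.

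Immune signalling and defence proteins were a group of 5, with changes of 2.06-fold to 3.75-fold in siFIE and 2.01-fold to 6.27-fold in clf swn. FLS2, the receptor of bacterial flagellin, was at 801, 748 and 1049.8 in Col, 1494, 2019 and 2569 in siFIE and 77.4, 189 and 174 in clf swn. WRKY53, a transcription factor of senescence and defence, had 253, 335 and 324 in Col, 581, 923 and 1049 in siFIE and 148, 132 and 172 in clf swn. Groups were separate for both. PR4, a hevein-like protein, was 2.96-fold higher and 2.04-fold lower, SYP122, a plasma membrane syntaxin, 2.06-fold and 2.07-fold, and RING1 (AT5G10380), a RING finger ubiquitin ligase and not the PRC1 subunit of a like name, 3.75-fold and 2.46-fold.

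Membrane transport, channels and iron reduction gave 6 members. Besides ABCC9 these were ABCG40, which imports abscisic acid (3.04-fold higher and 2.24-fold lower), DTX50, of the MATE transporters (2.28-fold and 2.31-fold), the cyclic nucleotide-gated channel CNGC13 (2.39-fold and 2.95-fold), the glutamate receptor-like GLR2.7 (2.02-fold and 2.98-fold) and the ferric reductase FRO1 (4.51-fold and 2.14-fold). FRO1 was dim in Col and clf swn, and without background correction it was 2.33-fold higher and 1.26-fold lower. A further 5 belonged to sugars, the cell wall and carbon dioxide, among them BCA3, a beta carbonic anhydrase (2.45-fold and 5.86-fold), the 6-phosphogluconolactonase PGL5 (2.83-fold and 10.5-fold) and the pectin acetylesterase PAE8 (3.22-fold and 2.21-fold). Regulators were 5: NF-YB7, WRKY26, BT2, TIE4 and GASA1, at 2.27-fold to 2.61-fold in siFIE and 2.22-fold to 5.99-fold in clf swn. NF-YB7 and TIE4, which set ends of these ranges, had a mean signal above the floor of 256 in siFIE only. Without background correction NF-YB7 was 1.55-fold higher and 1.75-fold lower, and TIE4 1.53-fold and 1.34-fold. GASA1, a small gibberellin-regulated protein, was bright in all genotypes, at 15751, 16286 and 15877 in Col, 35484, 38422 and 36646 in siFIE and 6735, 6488 and 7413 in clf swn. Its groups were among the narrowest of all members. The remaining 36 of the 74 were not placed in a role group, and ranged from 2.00-fold to 11.3-fold in siFIE and from 2.03-fold to 35.4-fold in clf swn. On RMA values AT2G04210 had the largest clf swn change of these, from 1479.5, 347 and 1130.2 in Col to 23.5, 28.8 and 19.3 there, with 2718, 2376 and 2304 in siFIE. Its Col arrays were themselves 4.26-fold apart. Without background correction it was 4.52-fold lower in clf swn, less than AT5G50915 at 7.65-fold and AT3G16530 at 5.98-fold.

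The siFIE arrays did not share the low values evenly. The first was the lowest of the 3 siFIE arrays for 44 of the 74 genes (59.5%), whereas it was the lowest for 37.4% of all genes. For 8 of the 74 it was over 2-fold below the mean of the other siFIE arrays, and the median difference was -0.21 on the log2 scale. For AT3G44870 the highest siFIE array was 6.51-fold above it. AT2G25460 had 866, 4620.3 and 4313 in siFIE against 819, 725 and 742 in Col and 286, 282 and 383 in clf swn. Without that array 92 genes met the rule in this direction, 70 of them members. Among the 30 genes of the opposite direction it was the lowest for 11. There the second siFIE array was the lowest for 15 (50.0%), against 33.5% of all genes, with a median difference of -0.17 from the other siFIE arrays.

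The opposite set was led by ASG4, a MYB-related transcription factor. It measured 824, 559.6 and 665 in Col, 312, 132 and 141 in siFIE and 6490.1, 6148 and 5298 in clf swn. The clf swn arrays were close to each other and 8.83-fold above Col, and siFIE was 3.75-fold lower with its first array the highest. TZF5, a tandem CCCH zinc finger protein, was at 897, 1233 and 1228 in Col, 304, 334 and 333 in siFIE and 3946, 5858 and 7988 in clf swn. It was 3.42-fold lower and 5.14-fold higher, and the groups did not overlap. PUB19, a U-box ubiquitin ligase of drought and abscisic acid signalling, had 2004, 1293 and 1894 in Col, 375, 787 and 506 in siFIE and 5444, 7793 and 11377 in clf swn. Arrays of both mutants spread over 2-fold for this gene, and its mean changes were 3.20-fold and 4.62-fold. OZF1, a second protein of the TZF5 family, gave 1569, 1451 and 1340.1 in Col, 328, 599 and 537 in siFIE and 2793, 3978 and 4069 in clf swn, which is 3.07-fold lower and 2.46-fold higher. HAI2, a protein phosphatase 2C that dampens abscisic acid signalling, was at 5645, 5959.5 and 6186 in Col, 1901, 2609.5 and 2339 in siFIE and 11263, 13472 and 12184 in clf swn. It completed a group of 4 stress and abscisic acid genes, formed after the values were seen. These were 2.62-fold to 3.42-fold lower in siFIE and 2.07-fold to 5.14-fold higher in clf swn. RD20 and ABCG40 of the first set, tied above to drought and abscisic acid, moved the other way. On a list of 19 cold, drought and abscisic acid genes, 1 was called higher and 2 lower in siFIE. In clf swn 4 were called higher and 8 lower. The shares of all genes were 4.51%, 3.19%, 8.78% and 12.8% in the same order.

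Transcription factors and signals of development made up 7 of the 30. HDG5, listed on the array's locus under the symbol HB-7, is a homeodomain protein of class IV that acts in the epidermis. Its signal was 663, 568 and 821 in Col, 223, 278 and 307 in siFIE and 1662, 2173 and 1680.5 in clf swn, 2.53-fold lower and 2.70-fold higher. HAT3, a homeodomain protein of class II that acts in leaf polarity, was at 1382, 1727 and 1554 in Col, 356, 352 and 427 in siFIE and 2835, 3598 and 3355 in clf swn. Its siFIE arrays lay far below the others, 4.11-fold under Col, and clf swn was 2.098-fold higher. CLL1 (EPFL5), a secreted peptide of the epidermal patterning factor-like family, was 2.57-fold lower and 2.32-fold higher, the zinc finger homeodomain protein HB28 2.101-fold and 2.41-fold, and PAR2, a basic helix-loop-helix protein of shade responses, 2.07-fold and 3.999-fold. MYB111, which activates flavonol synthesis, was at 779.9, 705 and 795 in Col, 413, 308 and 423 in siFIE and 2253, 2178 and 1565 in clf swn. The groups of all 7 were apart, and ASG4 had the largest clf swn change. PAR2 was dim in Col and siFIE, and without background correction it was 1.31-fold lower and 2.36-fold higher.

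Among the enzymes, UGT84A2, a glucosyltransferase of sinapate, was bright in every genotype at 10381, 9552 and 11182 in Col, 5080.3, 5395 and 4458 in siFIE and 27105, 27599 and 23522 in clf swn. CCD7, a dioxygenase of strigolactone synthesis, was dim, at 214, 162 and 161 in Col, 60.1, 28.6 and 51.0 in siFIE and 300.4, 365 and 440.2 in clf swn. UGT84A2 was 2.09-fold lower and 2.51-fold higher, and CCD7 4.001-fold and 2.05-fold. RPB5D, of the family of a shared RNA polymerase subunit, was at 1268, 1293 and 1178 in Col, 632, 411 and 394 in siFIE and 3350.1, 3769.9 and 3275 in clf swn, with the first siFIE array above the other siFIE arrays and below Col. PPI2, a proton pump interactor, had 2058, 1998 and 1825 in Col, 1650.5, 223 and 1736 in siFIE and 5632, 5488 and 4133 in clf swn. Its siFIE mean rested on the second array, as the other two were just under Col, and limma called it in neither comparison.

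The other loci of the top 12 are given by locus only. Synonyms in the annotation were taken up for a few genes and not for these, so some of them may have a known role. AT5G55620 was at 2958, 2245 and 2298 in Col, 1163, 587 and 688 in siFIE and 15282, 12551 and 11721 in clf swn. AT3G11180 measured 312, 316 and 277 in Col, 75.6, 110.2 and 118 in siFIE and 1497, 1500.5 and 1069.9 in clf swn. Both genes had 3 separate groups, with changes of 3.19-fold and 5.28-fold for the first and 3.03-fold and 4.45-fold for the second. AT5G28910 had 755, 1008 and 816 in Col, 339, 261 and 270.4 in siFIE and 2692, 2518 and 2209 in clf swn. AT4G34550 gave 504, 451 and 411 in Col, 172, 122 and 128 in siFIE and 1365, 1096 and 1089 in clf swn. For AT1G33660 the values were 163, 348 and 215 in Col, 109.7, 61.3 and 117 in siFIE and 682, 692 and 706 in clf swn. These were between 2.49-fold and 3.27-fold lower in siFIE and between 2.59-fold and 3.02-fold higher in clf swn, and the Col arrays of AT1G33660 were 2.14-fold apart. Without background correction AT1G33660, dim in Col and siFIE, was 1.39-fold lower and 1.88-fold higher. AT1G70985, a dim gene, was at 182, 213 and 243 in Col, 34.9, 29.5 and 36.5 in siFIE and 548, 477 and 477 in clf swn. On RMA values it was 6.30-fold lower and 2.37-fold higher, and on probe signals without background correction 1.70-fold and 1.58-fold. HAT3, at 2.75-fold lower in siFIE, had a larger change than it there.

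**Figure D4:**
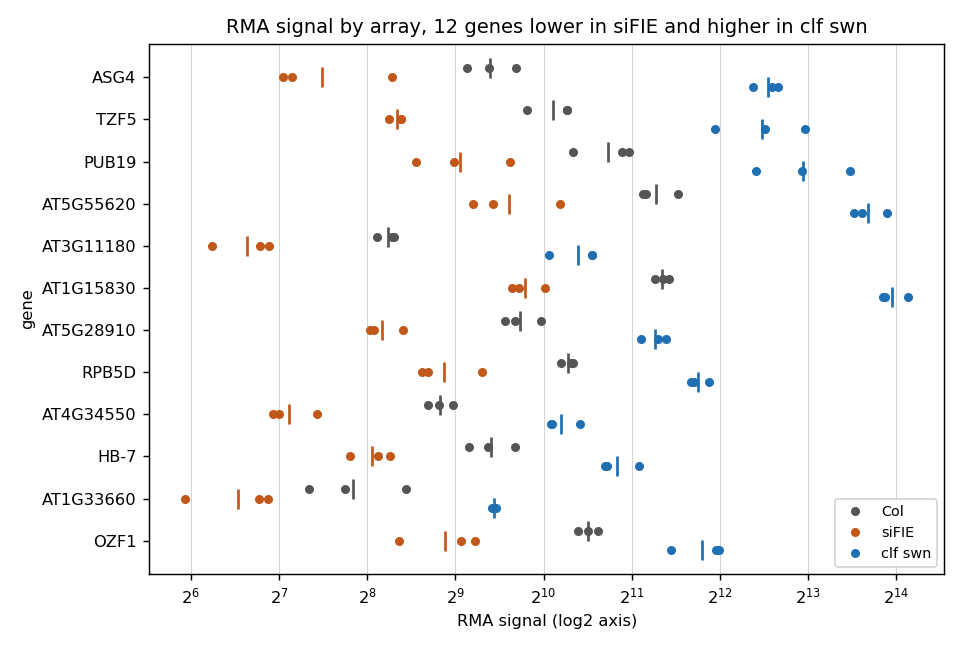
RMA signal on a log2 axis for the 12 members lower in siFIE and higher in clf swn with the largest smaller change. Dots are single arrays, 3 per genotype, and bars the mean of the log2 values. The siFIE dots lie left and the clf swn dots right of the Col dots in every row, from 3.75-fold and 8.83-fold for ASG4 to 3.07-fold and 2.46-fold for OZF1.

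Members next to each other on a chromosome with no gene between formed 3 pairs. AT1G15830 and AT1G15825 were both lower in siFIE and higher in clf swn. AT1G15830 was at 2747, 2618 and 2466 in Col, 1034, 799 and 842 in siFIE and 15047, 14765 and 18019 in clf swn. AT1G15825 was at 1307, 979.8 and 1697 in Col, 712, 456 and 542 in siFIE and 20624, 20372 and 23495 in clf swn, the largest clf swn change of the 30 at 16.6-fold. FAMT and AT3G44870, described above, were the pair with the reverse pattern. The third pair joined both directions: AT3G48510 was at 1225, 1163 and 975 in Col, 499, 571 and 570.4 in siFIE and 9147, 14116 and 14406 in clf swn, 2.04-fold lower and 11.02-fold higher, whereas its neighbour CYP94B3 was 4.67-fold higher and 2.48-fold lower.

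A readout that the rule did not use was the study's lists of ChIP-seq peaks of an HA-tagged FIE in the aerial tissue of C24 seedlings, with positions in TAIR9. A FIE-HA peak in the gene body was listed for 9 of the 74 genes (12.2%) and for 6 of the 30 (20.0%), against 3.96% of all array genes. Of these, 4 of the 74 (5.41%) and 3 of the 30 (10.0%) had a FIE-HA peak that coincided with the mark H3K27me3, against 2.22% of all array genes. These shares are given without a test, since the lists at hand may be incomplete. The 9 were LOX3, LOX4, CYP94B3, SYP122, BT2, AT2G25460, AT3G50570, AT3G62820 and AT5G39580, and the 6 were TZF5, HDG5, HAT3, ATL4, HAI2 and AT3G48510. CYP94B3, AT3G50570, AT3G62820 and AT5G39580 in the first set and HDG5, HAI2 and AT3G48510 in the second were those with the coinciding mark. The others had FIE-HA peaks without it, a class that the study itself treated as largely unreliable.

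Sequences are shown for the starts of the coinciding peaks at the neighbours that moved in opposite directions, and at AT3G62820, the first of the 74 in order of the smaller change with such a peak. Each is the first 300 bases of the peak, as listed by the study and with the strand not given in the sources used here, and capitals mark GAGAGA or its reverse complement TCTCTC, the core of GAGA elements. The AT3G48510 peak began at chr3:17967550-17967849, the CYP94B3 peak at chr3:17974610-17974909 and the AT3G62820 peak at chr3:23229830-23230129. The whole peaks were 1231, 2001 and 401 bases long.
AT3G48510: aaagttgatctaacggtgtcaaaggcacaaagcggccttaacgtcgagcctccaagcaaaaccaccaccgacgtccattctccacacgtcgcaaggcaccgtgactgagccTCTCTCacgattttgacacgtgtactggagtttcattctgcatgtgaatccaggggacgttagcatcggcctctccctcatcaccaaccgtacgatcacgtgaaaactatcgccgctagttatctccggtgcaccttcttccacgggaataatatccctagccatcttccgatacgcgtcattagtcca
CYP94B3: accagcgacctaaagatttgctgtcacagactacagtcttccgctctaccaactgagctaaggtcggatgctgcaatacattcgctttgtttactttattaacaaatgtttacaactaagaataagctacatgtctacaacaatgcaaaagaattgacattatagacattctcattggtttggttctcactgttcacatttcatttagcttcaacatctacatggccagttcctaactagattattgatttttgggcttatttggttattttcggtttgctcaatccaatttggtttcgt
AT3G62820: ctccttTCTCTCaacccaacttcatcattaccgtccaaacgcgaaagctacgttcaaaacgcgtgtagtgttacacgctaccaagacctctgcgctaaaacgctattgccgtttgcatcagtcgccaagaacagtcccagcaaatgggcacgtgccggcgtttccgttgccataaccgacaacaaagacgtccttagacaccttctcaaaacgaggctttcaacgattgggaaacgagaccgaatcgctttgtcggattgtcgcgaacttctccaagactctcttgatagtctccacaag
The motif occurred at 1 start in the window of AT3G48510, at 0 in that of CYP94B3 and at 1 in that of AT3G62820. The bases at hand past that window held 1 more start in the AT3G48510 peak, and the rest of that peak and of the CYP94B3 peak was not searched. Of 703 coinciding peaks with as many bases at hand, 38.8% held it in the first 300 bases, on either strand. A match is a description of the letters and not of a binding site. Promoter sequences of the members were not analysed here.

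In the jasmonate and ethylene defence list, written from general knowledge, PR4 was the only gene called higher in siFIE and lower in clf swn, as the rule had chosen it for this. Of the 20 genes, PR4 included, 12 were called higher and 0 lower in siFIE, with a median change of 1.34 on the log2 scale. In clf swn 4 were called higher and 8 lower, with a median of -0.67. Over all genes the shares called were 4.51% higher and 3.19% lower in siFIE, and 8.78% higher and 12.8% lower in clf swn. The 4 genes of the list with the smallest p, AOC2, LOX2, AOS and AOC1, are plastid enzymes of jasmonate synthesis. AOC2, an allene oxide cyclase, was at 12817, 14618 and 9913 in Col, 10327, 5812 and 6983 in siFIE and 164, 189 and 113 in clf swn, a log2 change of -6.34 in clf swn (limma, adjusted p = 7.9e-08). LOX2, a further 13-lipoxygenase, was at 53640.0, 47569 and 51409 in Col, 52791, 54203 and 58640.0 in siFIE and 2062, 2818 and 2904 in clf swn, with -4.31 (limma, adjusted p = 2.4e-08). Both fell in clf swn to levels far under every other array, while the siFIE arrays overlapped those of Col. AOS and AOC1 fell too, to -3.36 and -4.83 on the log2 scale (limma, adjusted p = 3.7e-08 and 3.9e-07), whereas their siFIE values of -0.61 and -0.51 were not called. LOX2 was not called in siFIE either, whereas LOX3 and LOX4, as members, were higher there by the rule.

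Apart from PR4, the genes called higher in siFIE were not those called lower in clf swn, and the examples that follow were chosen after their values were seen. JAZ1, a repressor that jasmonate induces, rose by 1.60 ± 0.20 (SE) in siFIE (limma, adjusted p = 0.00044) and was at 0.17 ± 0.20 in clf swn. VSP2, a vegetative storage protein, rose by 1.23 ± 0.11 (limma, adjusted p = 8.2e-05) and was at -0.18 ± 0.11 in clf swn. In both genes the clf swn value was not called. JAZ10, PDF1.2, THI2.1 and HCHIB were called higher in both mutants, with 4.37 and 2.41 for JAZ10 and 4.80 and 2.37 for the thionin THI2.1 (limma, adjusted p = 1.5e-05, 0.00013, 1.9e-05 and 0.00034). The first siFIE array was the lowest of its group for JAZ10, at 2658, 6025 and 5835 against 265, 172 and 233 in Col, and for OPR3, a reductase of jasmonate synthesis and also called higher in siFIE, at 5462, 9795 and 11282. It was the highest for the defensin PDF1.2, at 4595, 684 and 778, and for PDF1.2b, at 302, 61.3 and 98.6. MYC2, the transcription factor at the head of the pathway, fell by 1.30 in clf swn (limma, adjusted p = 8.2e-05), and its siFIE value of 0.64 was under 2-fold.

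**Figure D5:**
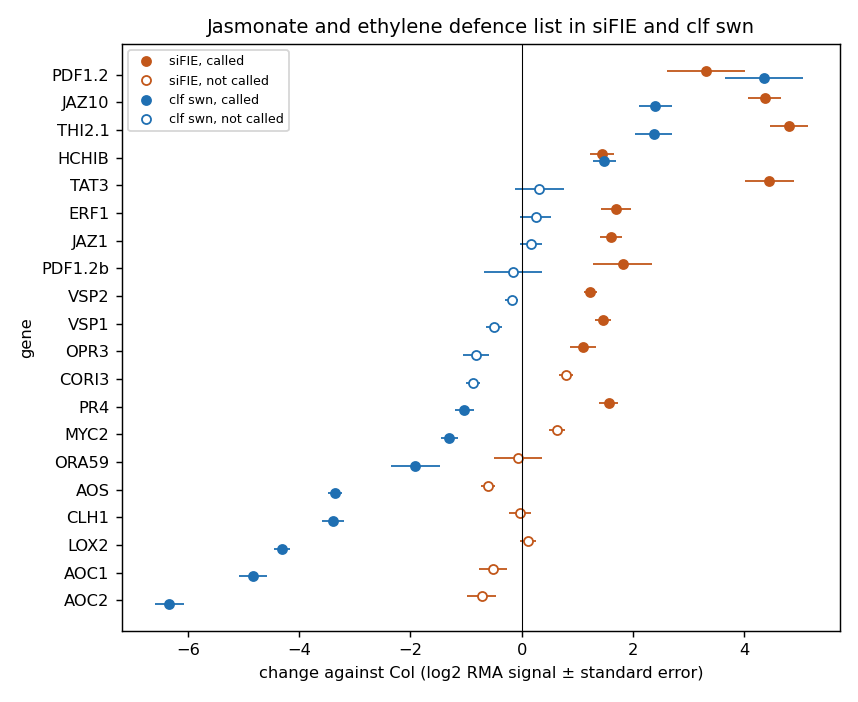
Change against Col on the log2 scale with its limma standard error for the 20 genes of the jasmonate and ethylene defence list, orange for siFIE and blue for clf swn, filled where called and open where not. The siFIE points lie above 0 for most genes, 12 of them called higher, and the clf swn points run from -6.34 for AOC2 to 4.35 for PDF1.2.

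Flavonoid and anthocyanin genes, the list of MYB111, moved otherwise. Of 15 used, 0 were called higher and 7 lower in siFIE, and 6 higher and 7 lower in clf swn, with medians of -0.51 and 0.04. MYB111 is counted among those lower in siFIE and higher in clf swn, as the rule had chosen it for this. For this list and those below, the shares of all genes were 4.51% higher and 3.19% lower in siFIE. In clf swn they were 8.78% higher and 12.8% lower. Of the genes called higher in clf swn, CHI, the chalcone isomerase, rose by 1.79, FLS1, the flavonol synthase, by 1.64 and MYB12, the close relative of MYB111, by 1.82 (limma, adjusted p = 8e-06, 3.9e-06 and 4.6e-05). These were chosen after their values were seen, and in siFIE they were at 0.22, 0.15 and -0.51, not called. CHS, the chalcone synthase at the entry of the pathway, was at 0.64 in clf swn and not called. DFR and UF3GT, enzymes of anthocyanins and among the 4 with the smallest p, fell in both mutants, with log2 changes of -1.24 and -2.08 in siFIE and -5.34 and -5.73 in clf swn (limma, adjusted p = 0.0049, 0.0017, 1.2e-07 and 6.5e-07). In the salicylic acid list 3 of 17 were called higher and 2 lower in siFIE, and 0 higher and 8 lower in clf swn. PR5, EDS1 and WRKY70 were among the latter, at -4.75, -1.98 and -3.38 (limma, adjusted p = 3.9e-06, 2e-06 and 1.6e-07), and WRKY70 was lower in siFIE as well, at -1.55 (adjusted p = 0.00014). Growth hormone genes, the list of GASA1, had 2 of 22 called higher and 4 lower in siFIE and 3 higher and 8 lower in clf swn. GASA1 itself is counted among those higher in siFIE and lower in clf swn, as a member.

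Markers of the tissues of a seedling were measured in the same arrays. Of 18 photosynthesis genes, 15 were called lower in clf swn and 3 in siFIE, and their summed signal was 629343 to 657553 on the Col arrays, 494177 to 530943 in siFIE and 207002 to 219586 in clf swn. Of 10 root and root hair genes, 5 were called lower in clf swn and 0 in either direction in siFIE, with overlapping sums of 75104 to 82761, 76540 to 79584 and 70717 to 78811. A sum rests mostly on the brightest genes. The median change of these 10 genes on the log2 scale was -0.22 in siFIE and -1.17 in clf swn. The endodermal CASP1 and CASP2 and the root hair gene EXPA18 were lower in clf swn. Of 9 genes of shoot cell types, 5 were called lower and 1 higher in clf swn and 1 lower in siFIE, with sums of 95852 to 99776, 73515 to 84995 and 76446 to 87511. KAT1, a potassium channel of guard cells, was at 78.4, 80.1 and 98.4 in clf swn against 5760.2, 5631 and 4656 in Col. The root and shoot markers named here are examples of falls and do not stand for their lists. The 1 shoot gene called higher in clf swn is not among them. No marker was at 0 on these arrays, which give every gene a signal. Summed signals of photosynthesis and of shoot cell types were thus under Col in both mutants. Those of roots overlapped Col, although the median root gene was lower in clf swn. The part of these tissues in the changes of the members was not tested.

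The size of the changes depended on the background correction. On probe signals without background correction all 74 and all 30 kept both directions, but 29 and 9 were still over 2-fold on both sides. JAL23 was then 39.4-fold lower in clf swn, NATA1 9.88-fold and AT5G62730 2.00-fold. Of the probes of the 74 genes, 179 of 181 had the sign of their gene on both sides, and of the 30, 69 of 69. A difference of any size counted, also on probes near the background. The RMA values that chose the members summarise these same probes, so the counts are no separate support. The share over all genes was not computed.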

How the data were processed

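RNA of the 9 pools was hybridised to Roche NimbleGen arrays with 60-base probes. For each array the authors deposited linear probe intensities, written by NimbleScan 2.4.31 and not normalized, and a linear intensity per gene, which is RMA per the submitters' notes. How RMA was run is not given in the sources used here. Identical RMA values were in the series table. Most genes had 2 or 3 probes. The number of arrays limits the precision, and p-values measure only the spread between these pools.

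Log2 RMA values of 30361 genes were analysed by limma 3.58.1 under R 4.3.3 (lmFit and eBayes, two-sided, all 9 arrays in 1 fit), with Benjamini-Hochberg adjustment over all genes. A call needed an adjusted p under 0.05 and a change over 2-fold. The study's methods give 2-fold at 95% confidence and name no correction. Summaries used Python 3.11.15, numpy 2.4.6 and pandas 2.3.3. The fit was checked on simulated data. Names came from the TAIR 10.1 annotation, in which 29976 array loci and all 104 members were found.

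The members and the gene lists were chosen with earlier results of these data known. Named are, per direction, the 12 members with the largest value of the smaller of both changes. Members in a list, in a neighbouring pair or under a FIE-HA peak are named too. In some of the lists described, so are up to 4 other genes with the smallest p. The other lists, such as those of glucosinolates, of iron, copper and zinc and of the circadian clock, were counted too and are not described. Of 267 listed genes in 16 lists 257 were used, as the annotation gave no such name for the other 10, and 3 lists held a member. The members with a role named in the text were grouped by general knowledge after their values were seen. Clauses on product families and promoter motifs could not be applied. The study's list of H3K27me3 peaks was held in part only, with 1999 peaks, and was not used for single genes. In that part a peak in the gene body was listed for 5 of the 74 genes (6.76%) and 4 of the 30 (13.3%). The share of all array genes was 6.23%, and no test was made.

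Alternatives were probe intensities without background correction and with normexp (offset 50) followed by quantile normalization or median scaling, quantile normalization of the RMA values, the series table, no floor or a floor of 10, changes beyond 0.8 or 1.5, each array left out, only the 2 groups compared, genes above the 25th percentile of signal, and the replicate number as a block. In the main fit the replicate numbers were not used as pairs.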

Additional observations from a re-analysis of the deposited data

How the results depend on the processing

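The counts of members, 74 and 30, moved by more than 1.5 times with the background correction and with the size of change asked for. Probe signals without background correction gave 29 and 9, normexp with quantile normalization 40 and 12, and normexp with median scaling 37 and 12. All members kept both directions in each of these settings, and every gene found there was a member. Asking for a change of more than 1.5 on both sides left 18 and 7, and more than 0.8 gave 141 and 59. Quantile normalization of the RMA values gave 69 and 32, the series table and no floor gave 74 and 30, and a floor of 10 gave 60 and 21. Leaving out 1 array at a time gave 65 to 92 genes in the first direction and 27 to 34 in the second. The rule held without each array in turn for 46 and 16 members. Members called by limma on both sides, 72 and 29, fell to 29 and 9 on probe signals without background correction, numbered 56 to 69 and 24 to 28 without 1 array, and were 71 and 29 both with only the groups compared and without the dimmest genes. With the replicate block they were 72 and 29. The correlation of deviations between same-numbered samples ranged from -0.164 to 0.169, and between other numbers from -0.153 to 0.197. With so few arrays per genotype, these ranges cannot decide whether same-numbered samples were handled together. The first array had the lowest median probe signal before normalization in Col (1213.2), siFIE (1319.1) and clf swn (1278.7). The second array had the highest in Col (2370.1) and siFIE (2168.3), but in clf swn the third did (1588.8). On the settings without RMA, 78 to 112 of the 208 member changes stayed within the spread between replicates. The jasmonate list had 8 or 9 genes over 2-fold higher in siFIE and 6 or 7 lower in clf swn on probe signals, against 12 and 8, and none of its called genes changed sign. Dim signals, as in clf swn for JAL23 or NATA1, set a limit to how well large fold changes are known.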
